A study of Mus musculus with 18 samples.

Results

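The glucose transport, glycolysis and hypoxia genes described here are 10 genes taken by name from the expression tables of 18 mouse lung cultures, among 46603 genes listed per culture. They fall into 2 glucose transporters (Slc2a1 and Slc2a3), 4 glycolytic enzymes (Hk1, Hk2, Pgk1 and Ldha) and 4 genes known as targets of hypoxia signalling (Vegfa, Adm, Bnip3 and Egln3). The list was put together because Slc2a3 was higher in tumoroids than in organoids in these same data, so the values that compare tumoroids with organoids are given as a description, without a test.

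Glucose enters lung epithelial cells through facilitative carriers of the SLC2 family. Slc2a1 encodes GLUT1, the carrier found in most tissues, and Slc2a3 encodes GLUT3, a carrier of high affinity best known from neurons. Hexokinases trap the sugar as glucose 6-phosphate, phosphoglycerate kinase makes ATP further down the pathway, and lactate dehydrogenase A converts pyruvate to lactate. When oxygen falls, hypoxia-inducible factors (HIF) are no longer marked for degradation and switch on many of these genes, together with angiogenic and mitophagy genes and with the prolyl hydroxylase Egln3, which in turn acts on HIF.

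The study took epithelial cells from mice that carry human EGFR with the T790M and L858R changes in the Col1a1 locus, behind a lox-stop-lox cassette and the CAG promoter. Sorted club and basal cells of the trachea, alveolar type 2 (AT2) cells and bronchioalveolar stem cells (BASCs) received adenovirus with GFP (Ad-GFP, transgene silent) or with Cre recombinase (Ad-Cre, transgene switched on). They were grown as organoids in Matrigel beside neonatal lung support cells, which the paper calls mesenchymal or mesenchymal endothelial. BASC cultures were subcloned by their look into alveolar, bronchiolar and mixed ones. Ad-Cre organoids were passed into the airways of nude mice (Foxn1 Nu/Nu), and tumors were put back into culture as tumoroids. The paper reports tumors from AT2 cells and BASCs, a small nodule in a single mouse from club cells, and none from basal cells. RNA came from 10 organoid cultures, 1 for each population and virus: club, basal, AT2 and mixed BASC cells with Ad-GFP and with Ad-Cre, and alveolar and bronchiolar BASCs with Ad-Cre. It also came from 8 tumoroids, of which 3 derived from AT2 cells, 3 from mixed BASCs, 1 from bronchiolar BASCs and 1 from an autochthonous tumor, raised by giving Ad-Cre to the lung of a transgenic mouse. The AT2 tumoroids carry AT2 as their origin but NGFR negative as their sort, which is the sort of the tracheal club cells, and were grouped here by origin. Nothing in the labels says whether libraries of a group came from separate cultures or animals, so p-values measure only the spread between these samples.

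The genes lie apart from each other in the genome, and their promoters were read to show what they share. Of the 10 genes, 9 had at least 1 start in the RefSeq promoter table (GRCm38.p6). The core letters of the HIF site, ACGTG or GCGTG, were searched on both strands in the 250 bases before each start, where matches may overlap. A match was found at 10 of the 12 starts of these genes, against 38.6% of the 32851 promoters of the table. All 9 genes had at least 1 such start. The number of matches ran from 0 at one of the starts of Hk1 and of Vegfa to 5 in Bnip3 and at one start of Ldha. Of all promoters, 16.7% held 2 or more and 2.6% held 4 or more. The 4 windows below belong to genes that went in opposite directions between alveolar and tracheal organoids, 2 that were higher in alveolar ones (Bnip3 and Pgk1) and 2 that were lower (Adm and Egln3). Each is written 5′ to 3′ on the gene's strand, without annotated exon bases, with the matches in capitals.
Pgk1, chrX:106186850-106187099, + strand: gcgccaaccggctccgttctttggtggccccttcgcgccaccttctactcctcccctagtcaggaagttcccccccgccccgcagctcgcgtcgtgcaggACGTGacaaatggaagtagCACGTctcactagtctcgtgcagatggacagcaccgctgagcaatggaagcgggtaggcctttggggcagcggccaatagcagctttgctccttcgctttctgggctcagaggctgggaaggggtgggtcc
Bnip3, chr7:138909520-138909756, - strand: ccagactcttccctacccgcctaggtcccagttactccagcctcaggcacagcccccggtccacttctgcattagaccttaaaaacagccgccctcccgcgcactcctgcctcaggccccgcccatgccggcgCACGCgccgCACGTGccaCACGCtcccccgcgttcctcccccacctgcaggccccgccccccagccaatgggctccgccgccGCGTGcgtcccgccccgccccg
Adm, chr7:110627407-110627656, + strand: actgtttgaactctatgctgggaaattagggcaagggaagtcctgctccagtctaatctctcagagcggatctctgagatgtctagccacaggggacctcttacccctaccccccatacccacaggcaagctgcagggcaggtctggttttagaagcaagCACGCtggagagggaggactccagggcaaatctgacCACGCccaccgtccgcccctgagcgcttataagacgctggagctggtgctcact
Egln3, chr12:54203875-54204124, - strand: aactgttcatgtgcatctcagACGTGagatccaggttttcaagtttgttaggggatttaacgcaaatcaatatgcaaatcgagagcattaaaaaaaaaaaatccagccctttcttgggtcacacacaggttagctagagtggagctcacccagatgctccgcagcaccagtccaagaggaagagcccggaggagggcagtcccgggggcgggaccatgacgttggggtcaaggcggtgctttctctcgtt
The higher and the lower genes both held the core, with 2 matches in Pgk1, 5 in Bnip3, 2 in Adm and 1 in Egln3. A match is a description of the letters, and binding was not measured.

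Library size ranged from 27772660 to 97191624 expected counts in organoids and from 15327265 to 23355938 in tumoroids, so all members were far above the floor of 3 counts in every library. Organoids were sequenced on the HiSeq platform and tumoroids on the DNBSEQ platform, so platform and transplantation cannot be told apart. Sftpc, the AT2 surfactant gene, stood at 26360 to 28590 CPM (counts scaled to the TMM-adjusted library size) in AT2 and alveolar BASC organoids, together called alveolar organoids below. The club-labelled organoids held only 2.56 and 4.41 CPM of the club gene Scgb1a1, beside 2396 and 2335 CPM of the basal keratin Krt5. Their 6 club markers, all above 1 CPM, summed to 4878 and 4658 CPM, and their 6 basal markers to 4316 and 4178 CPM. Mixed BASC organoids also held more Krt5 (1635 and 1002 CPM) than Sftpc (95.7 and 659 CPM). AT2 tumoroid 3 stood apart by its low Epcam, at 34.5 CPM, and high summed fibroblast markers, at 11170 CPM. The bronchiolar BASC tumoroid held 2367 CPM of Scgb1a1. In the AT2 tumoroids the 10 AT2 markers summed to 19240 to 95600 CPM and the 6 club markers to 69.8 to 588 CPM. All 9 fibroblast markers were above 1 CPM in every library, whereas the 7 endothelial markers summed to 0.607 to 10.1 CPM. Fewer cells of a type and less RNA per cell cannot be told apart in such bulk samples.

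On the TPM scale, which corrects for transcript length, Ldha was the highest member with a median of 1715 TPM over the 18 libraries. Pgk1 followed with 968 TPM, and Hk2 (36.9 TPM) and Slc2a3 (7.07 TPM) were the lowest by median. Slc2a3 also varied most among the members, from 0.79 TPM in mixed BASC Ad-GFP organoids to 235 TPM in AT2 tumoroid 2.

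**Figure D1:**
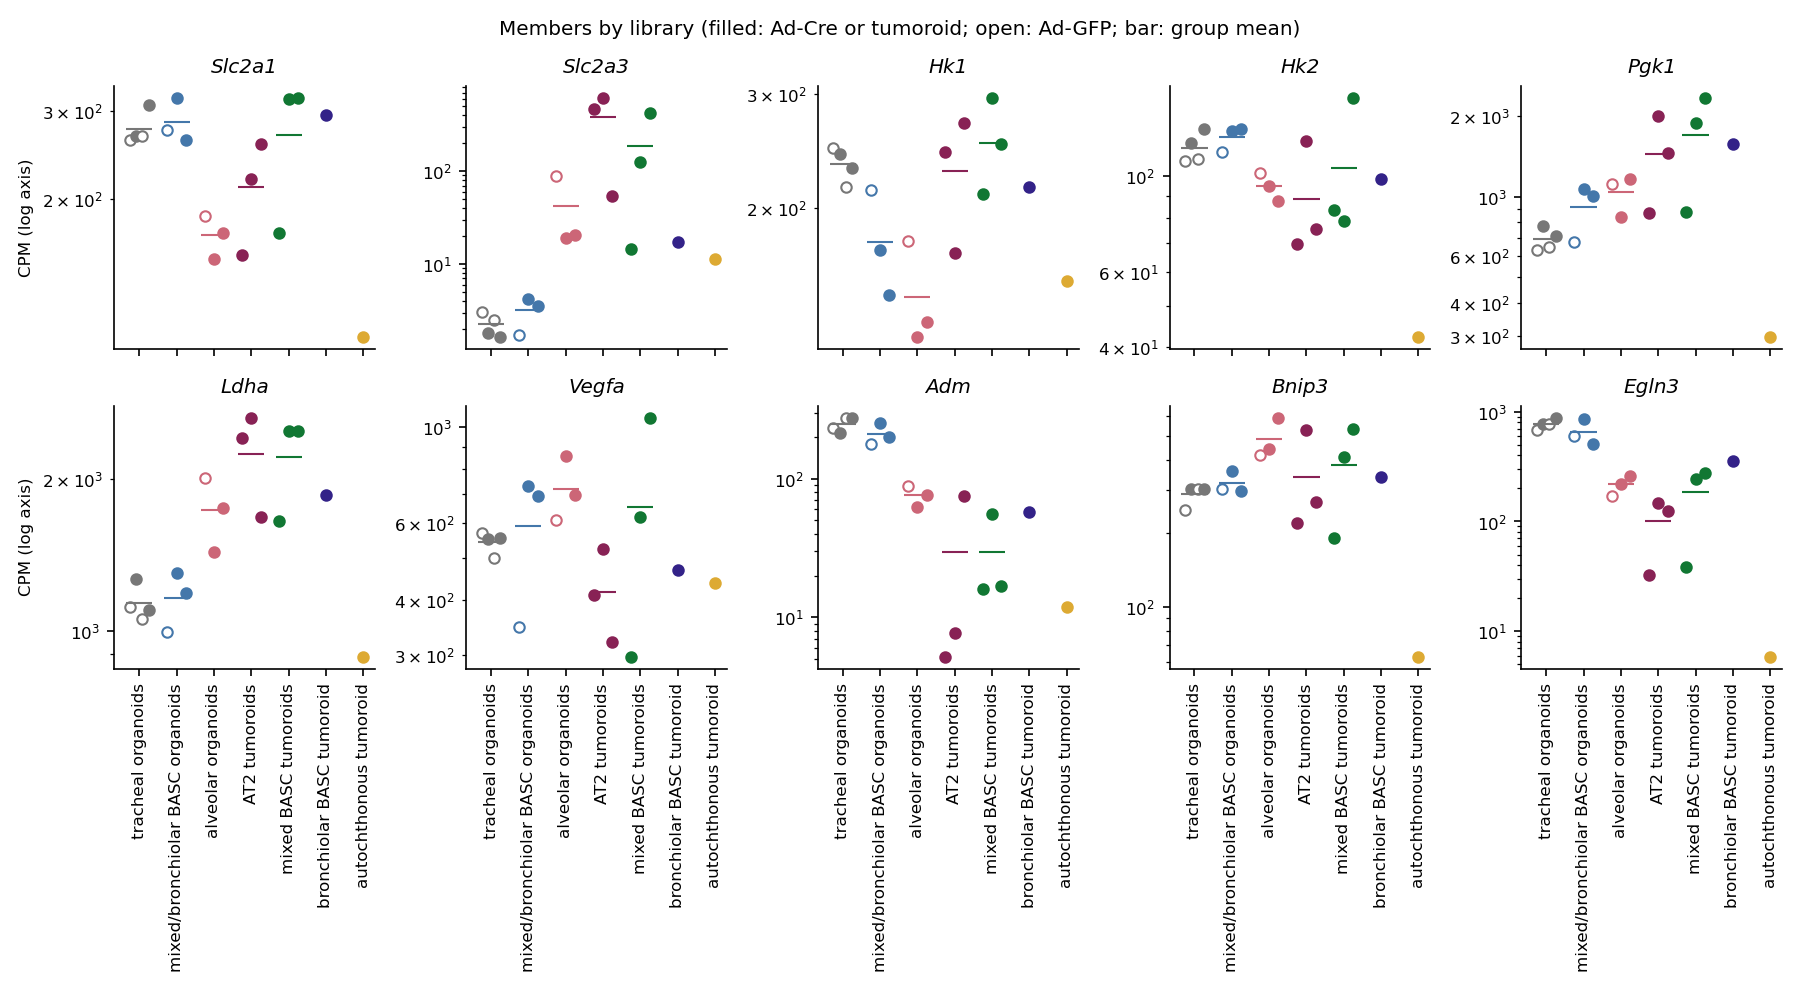
CPM of each member on a log axis in the 18 libraries, grouped by origin and stage, with open points for Ad-GFP, filled points for Ad-Cre or tumoroids and a bar at the mean of groups with more than 1 library. Slc2a3 rises from 1.62 to 4.21 CPM in tracheal and in mixed and bronchiolar BASC organoids to 614 CPM in AT2 tumoroid 2, whereas Adm and Egln3 are lower in alveolar organoids and in tumoroids.

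The lineage of the organoids was examined first, by setting the 3 alveolar organoid libraries against the 4 tracheal ones and, separately, against the 3 mixed and bronchiolar BASC ones. Against tracheal organoids, all 10 members passed the test, 5 higher and 5 lower, in a comparison in which 67% of the 18135 tested genes passed (32.9% higher and 34.1% lower). All 10 members also had groups that did not overlap, as did 68.6% of all tested genes. Against mixed and bronchiolar BASC organoids 6 of 10 members passed, 2 higher (Slc2a3 and Bnip3) and 4 lower (Slc2a1, Hk2, Adm and Egln3), where 42% of 18070 genes passed (21.7% higher and 20.3% lower). The comparisons share their alveolar libraries. The study split sorted cells into an Ad-GFP and an Ad-Cre aliquot, so the cultures of a population with both viruses share their cells. Alveolar, bronchiolar and mixed BASC cultures were subcloned from BASC organoids and stand on both sides of the second comparison. The tests treat these libraries as independent, so their p-values are uncertain to that extent. The members' shares against the trachea, 5 higher and 5 lower, were split much as those of all genes were. Slc2a3 (higher) and Slc2a1, Adm and Egln3 (lower) passed in both comparisons and when any 1 library was left out.

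Slc2a3 (ENSMUSG00000003153, chr6:122727809-122801640, - strand) differed most. It was at 88.2, 19.1 and 20.3 CPM in AT2 Ad-GFP, AT2 Ad-Cre and alveolar BASC Ad-Cre organoids, and at 3.07, 1.80, 2.48 and 1.62 CPM in club Ad-GFP, club Ad-Cre, basal Ad-GFP and basal Ad-Cre organoids. In mixed BASC Ad-GFP, mixed BASC Ad-Cre and bronchiolar BASC Ad-Cre organoids it was at 1.73, 4.21 and 3.56 CPM. Every alveolar library lay above every other organoid library, and the AT2 Ad-GFP culture was over 4 times as high as the other two. The log2 fold change was 4.33 ± 0.60 (SE) against tracheal organoids (adjusted p = 0.000358, edgeR quasi-likelihood test with Benjamini-Hochberg adjustment) and 3.78 ± 0.75 against mixed and bronchiolar BASC organoids (adjusted p = 0.0097). Without the AT2 Ad-GFP library these values were 3.22 and 2.69, and both still passed.

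Slc2a1 (ENSMUSG00000028645, chr4:119108711-119137983, + strand) went the other way. Alveolar organoids held 186, 152 and 171 CPM in the same order of libraries, tracheal organoids 263, 267, 268 and 309 CPM, and mixed and bronchiolar BASC organoids 275, 319 and 263 CPM. All 3 alveolar values lay below all 7 others, and the fold change was -0.64 ± 0.10 on the log2 scale against tracheal (adjusted p = 0.000616) and -0.71 ± 0.13 against the BASC organoids (adjusted p = 0.00676). Per length, Slc2a3 made up 7.02% to 23.5% of the summed TPM of the pair in alveolar organoids, against 0.381% to 0.732% in tracheal and 0.396% to 0.922% in mixed and bronchiolar BASC organoids. The summed level of both was still lower in alveolar organoids, at 115 to 161 TPM, than in tracheal ones, at 185 to 221 TPM. Slc2a1 therefore remained the larger part of the pair in all 10 organoid libraries.

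**Figure D2:**
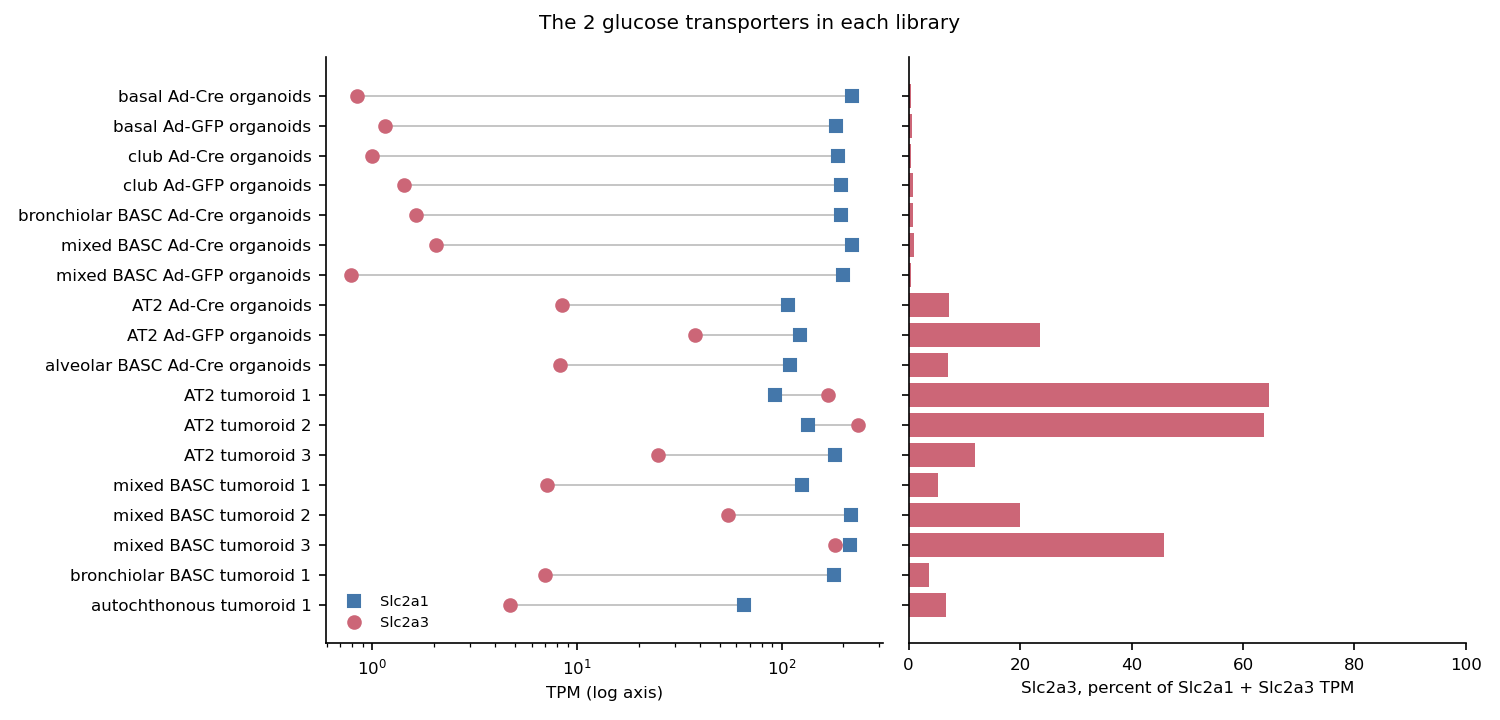
TPM of Slc2a1 (squares) and Slc2a3 (circles) on a log axis in each of the 18 libraries, and the share of Slc2a3 in their sum in percent as bars. The share is below 1% in tracheal and in mixed and bronchiolar BASC organoids, 7.02% to 23.5% in alveolar organoids and 3.73% to 64.6% in transplant tumoroids, and only in AT2 tumoroids 1 and 2 is Slc2a3 the higher of the pair.

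Among the enzymes, Hk1 and Hk2 were lower and Pgk1 and Ldha higher in alveolar than in tracheal organoids, and of these only Hk2 passed against the BASC organoids. Ldha (ENSMUSG00000063229, chr7:46841475-46855627, + strand) was at 2015, 1434 and 1756 CPM in AT2 Ad-GFP, AT2 Ad-Cre and alveolar BASC Ad-Cre organoids, against 1116, 1269, 1057 and 1101 CPM in tracheal organoids. The alveolar libraries were all higher, by 0.68 ± 0.14 on the log2 scale (adjusted p = 0.00295). They were also above the 3 mixed and bronchiolar BASC libraries (993 to 1305 CPM), where the fold change of 0.62 ± 0.21 missed the threshold (adjusted p = 0.0527) and passed by DESeq2 (adjusted p = 0.00383). Pgk1 (ENSMUSG00000062070, chrX:106187100-106203699, + strand), at 836 to 1162 CPM in alveolar and 633 to 774 CPM in tracheal organoids, was higher by 0.66 ± 0.14 (adjusted p = 0.00374). It overlapped with the BASC organoids (678 to 1064 CPM), where the fold change was 0.22 with a 95% interval from -0.35 to 0.79. Both genes have annotated copies of near-identical name (Pgk1-ps3 and Pgk1-rs7, Ldha-ps and Ldha-ps2), so that their counts are uncertain to the extent that reads were split.

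Hk1 (ENSMUSG00000037012, chr10:62268855-62379908, - strand) encodes the hexokinase of most tissues and Hk2 (ENSMUSG00000000628, chr6:82725025-82774454, - strand) the insulin- and hypoxia-responsive form. Hk1 was at 178, 127 and 134 CPM in the alveolar libraries and at 216 to 247 CPM in the tracheal ones, lower by 0.61 ± 0.13 on the log2 scale (adjusted p = 0.00297). Against the BASC organoids (147 to 213 CPM) it overlapped, and its change of -0.25 did not pass (adjusted p = 0.34). Hk2 was at 101.9, 95.04 and 87.57 CPM in the alveolar libraries, at 109 to 129 CPM in tracheal and at 114 to 129 CPM in BASC organoids. It was the smallest called difference, -0.23 ± 0.08 (adjusted p = 0.0388) and -0.34 ± 0.09 (adjusted p = 0.0256), and it did not hold when some single libraries were left out or when the filter on low counts was dropped (adjusted p = 0.13 and 0.0617). Slc2a1 (Gm12867 and Gm12868), Hk1 (Hk1os), Hk2 (Gm17034) and Adm (Gm28863) overlap genes of the opposite strand, and Slc2a3 overlaps Gm4482 and Slc2a1 overlaps Mir1957a on the same strand. Whether counting used strand is not given in the sources used here, so these counts are uncertain to that extent. Per length, Hk2 made up 29.9% to 43.2% of the hexokinase pair in alveolar, 22.9% to 30.7% in tracheal and 31.8% to 43.3% in BASC organoids.

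The hypoxia targets did not move as a block. Egln3 (ENSMUSG00000035105, chr12:54178981-54203860, - strand) was at 172, 219 and 262 CPM in the alveolar libraries, at 685, 767, 778 and 885 CPM in the tracheal ones, and at 606, 858 and 503 CPM in the BASC ones. Every alveolar value was below every other organoid value, with folds of -1.77 ± 0.17 (adjusted p = 4.23e-05) and -1.55 ± 0.26 (adjusted p = 0.00554) on the log2 scale. Adm (ENSMUSG00000030790, chr7:110627661-110629820, + strand), which encodes the vasodilator peptide adrenomedullin, showed the same order. It was at 88.9, 62.0 and 76.5 CPM in the alveolar libraries, at 213 to 276 CPM in tracheal and at 178 to 251 CPM in BASC organoids, and its folds were -1.64 ± 0.15 (adjusted p = 3.88e-05) and -1.43 ± 0.19 (adjusted p = 0.00253).

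Bnip3 (ENSMUSG00000078566, chr7:138890836-138909519, - strand), a receptor for the removal of mitochondria, was higher instead. It was at 416, 441 and 594 CPM in the alveolar libraries against 250 to 304 CPM in tracheal and 297 to 359 CPM in BASC organoids. The log2 fold changes were 0.81 ± 0.14 (adjusted p = 0.00135) and 0.64 ± 0.18 (adjusted p = 0.0335), the latter lost when any library other than AT2 Ad-GFP was left out (adjusted p = 0.0577 to 0.0834). Vegfa (ENSMUSG00000023951, chr17:46016993-46032369, - strand), the main angiogenic growth factor, was at 612, 855 and 696 CPM in the alveolar libraries and at 500 to 570 CPM in the tracheal ones, a difference of 0.47 ± 0.12 (adjusted p = 0.00901). It overlapped with the BASC organoids, which spread from 347 to 732 CPM (fold change 0.33, 95% interval -0.41 to 1.06). On the log2(TPM + 1) scale with limma, Vegfa no longer passed against tracheal organoids (adjusted p = 0.0805).

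**Figure D3:**
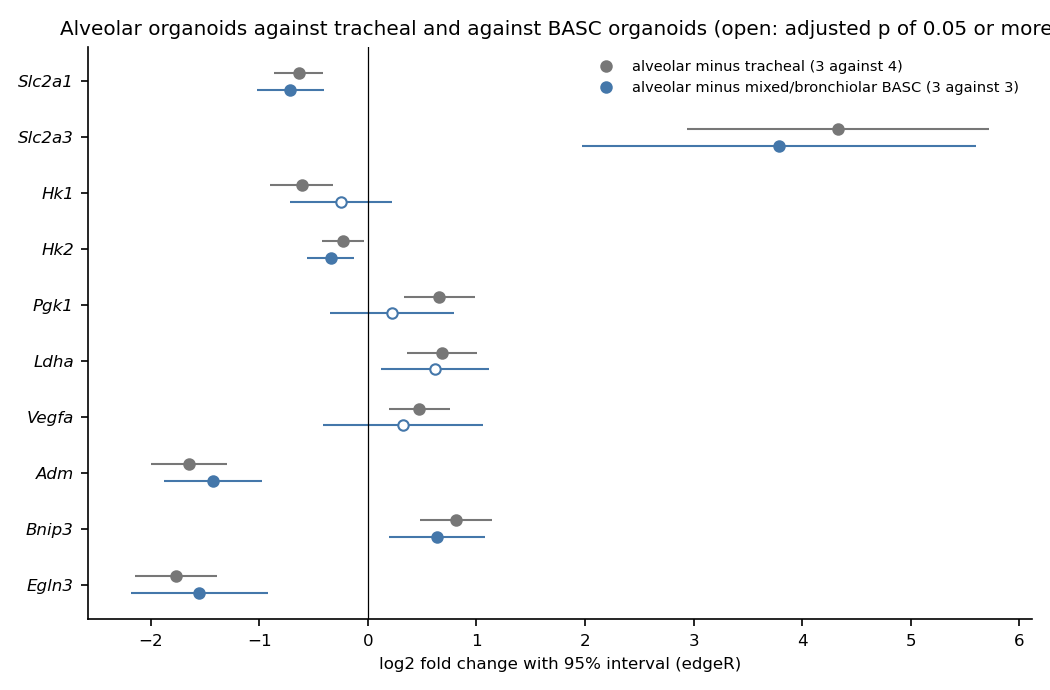
Log2 fold change of each member with its 95% interval in alveolar minus tracheal organoids (grey, 3 against 4 libraries) and alveolar minus mixed and bronchiolar BASC organoids (blue, 3 against 3), with open points where the adjusted p was 0.05 or more. Slc2a3 lies at 4.33 and 3.78, Adm and Egln3 lie between -1.77 and -1.43, and the other members stay within 0.81 of 0.

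The tracheal libraries carry lane code 6 and the distal ones codes 7 and 8, so lane and trachea cannot be told apart. Between alveolar and BASC organoids, which share lanes 7 and 8, members other than Pgk1 (0.40 and -0.03) had the same sign within both lanes. The share of all genes that did so was not computed. In a fit with the lane as a covariate, Slc2a1, Slc2a3, Adm and Egln3 still passed, and Hk2 (adjusted p = 0.0575) and Bnip3 (adjusted p = 0.0852) did not. When all 6 distal cultures stood in for the alveolar ones, 0 members and 50 genes passed against the trachea. The 2 basal cultures alone as the tracheal group were, like the lane covariate, an alternative chosen after seeing the data. Hk2 no longer passed there (adjusted p = 0.0749). Summed fibroblast markers also went with the lineage, at 5072 to 8803 CPM in alveolar, 2172 to 2352 CPM in tracheal and 2159 to 4835 CPM in BASC organoids, and the epithelial gene Epcam was at 134 to 219 CPM in alveolar organoids beside 666 to 1072 CPM in tracheal and 732 to 1217 CPM in BASC organoids. The part of either in these differences was not tested.

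Other genes of the same pathways, from lists without the 10 members, were counted in the same fits. Of the other glucose transporters, 10 of 12 were tested, and 4 were higher and 3 lower in alveolar than in tracheal organoids (4 and 1 against the BASC organoids). Slc2a13, a proton-coupled myo-inositol carrier of the same family, was at 51.2 ± 8.1 CPM (SD, n = 3) in alveolar and 1.55 ± 0.35 CPM (n = 4) in tracheal organoids, a log2 fold change of 5.13 (adjusted p = 6.45e-07), and Slc2a8 changed by 0.54 (adjusted p = 0.00289). Of the 6 genes of lactate and pyruvate transport 5 were higher and 0 lower (3 and 0 against the BASC organoids), among them the monocarboxylate carrier Slc16a1, at 161 ± 47 against 28.6 ± 3.6 CPM, and Mpc1, a subunit of the mitochondrial pyruvate carrier, at 124 ± 15 against 33.5 ± 3.9 CPM.

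Of 19 further glycolytic enzymes tested, 8 were higher and 3 lower against the trachea (6 and 1 of 18 against the BASC organoids). Hkdc1, a hexokinase-like enzyme, averaged 19.6 ± 5.2 CPM in alveolar and 0.0382 CPM in tracheal organoids (adjusted p = 2.83e-06), whereas Aldoc, an aldolase, was lower, at 78.94 ± 15.97 against 137 ± 10 CPM. Of 11 regulators of glycolysis 6 were higher and 2 lower (4 and 1), with Pfkfb4 at 53.1 ± 7.7 against 16.3 ± 1.3 CPM and Pfkfb3, a related fructose-bisphosphate regulator, at 98.9 ± 3.5 against 127 ± 12 CPM. Medians of the log2 fold change over the tested genes were 0.50 for transporters, 0.73 for lactate and pyruvate transport, 0.21 for enzymes and 0.33 for regulators, beside -0.04 over all genes.

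Of 9 HIF pathway genes 7 were higher and 1 lower against the trachea (7 and 0 against the BASC organoids). Arnt2, a partner of HIF alpha subunits, was at 36.2 ± 9.3 against 4.25 ± 0.52 CPM, while Epas1, which encodes HIF-2 alpha, was lower, at 495 ± 9 against 1554 ± 157 CPM (log2 fold change -1.58, adjusted p = 1.18e-05). Of 27 other hypoxia targets 15 were higher and 8 lower (12 and 6). Angptl4, an inhibitor of lipoprotein lipase, was at 70.2 ± 26.3 against 2.76 ± 0.50 CPM, and Car9, a carbonic anhydrase often used as a hypoxia marker, was at 1.44 ± 0.71 against 77.1 ± 16.7 CPM (log2 fold change -5.73, adjusted p = 6.2e-06). The medians were 0.40 for the HIF pathway and 0.60 for hypoxia targets.

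Switching on the transgene was examined in the 4 populations that had both viruses, with the population as a block. No member passed (0 of 10), as did 0% of the 17749 tested genes by edgeR, with 350 genes and 1 member (Egln3) under an unadjusted p of 0.05. DESeq2 called 5 genes and 0 members. Egln3 was higher with Ad-Cre in 4 of 4 pairs, by 0.16 in club, 0.19 in basal, 0.35 in AT2 and 0.50 in mixed BASC organoids on the log2 scale. The fitted change was 0.29 ± 0.10 (unadjusted p = 0.0334, adjusted p = 0.994). The share of all genes with the same sign in all 4 pairs was not computed.

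The AT2 and mixed BASC pairs went opposite ways for 6 members. Slc2a3 fell from 88.2 to 19.1 CPM with Ad-Cre in AT2 organoids and went from 1.73 to 4.21 CPM in mixed BASC organoids. Slc2a1, Hk2, Pgk1, Ldha and Adm were likewise lower with Ad-Cre in the AT2 pair and higher in the mixed BASC pair. The share of all genes for which these pairs went opposite ways was not computed. Each pair has 1 library for each virus and so no replicate check. Vegfa was higher in both distal pairs, from 612 to 855 CPM in AT2 and from 347 to 732 CPM in mixed BASC organoids, and nearly level in the tracheal pairs (570 and 553 CPM in club, 500 and 554 CPM in basal). The test of this difference, distal against tracheal, gave 0.73 ± 0.29 for Vegfa (unadjusted p = 0.0482, adjusted p = 0.998). It called 0 members and 0% of 17749 genes by edgeR, with 852 genes and 1 member (Vegfa) under an unadjusted p of 0.05, and DESeq2 called 141 genes and 0 members. Without the AT2 pair or the mixed BASC pair the distal side is 1 pair, the spread comes from the 2 tracheal pairs alone, and the distal pair is assumed to vary like them. Leaving out the AT2 pair gave 2 called members, Slc2a3 (2.01) and Vegfa (1.06), with 1562 genes, and leaving out the mixed BASC pair gave 1 member, Slc2a3 (-1.52), with 323 genes.

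**Figure D4:**
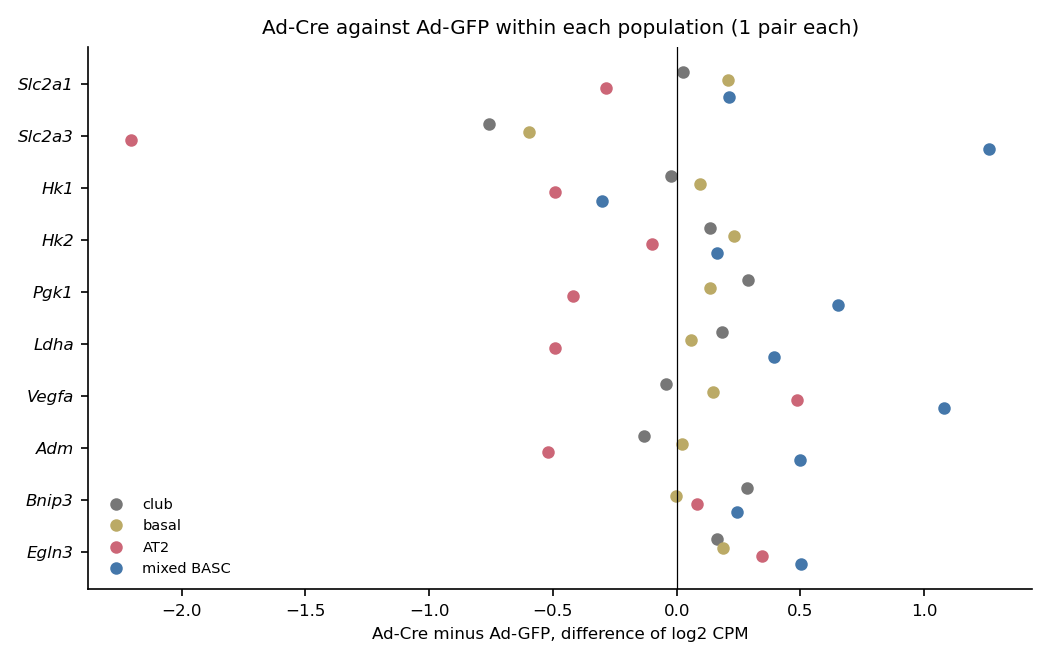
Difference of log2 CPM between the Ad-Cre and the Ad-GFP organoid library of each population, 1 point per pair, for the 10 members. Egln3 lies above 0 in all 4 pairs, and Slc2a3 lies at -2.20 in AT2 and at 1.26 in mixed BASC organoids.

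Club- and basal-labelled organoids gave 0 called members and 0% of 19178 called genes by edgeR, with 482 genes and 0 members under an unadjusted p of 0.05 and 41 genes and 0 members by DESeq2. Slc2a1 was at 263 and 267 CPM in club and at 268 and 309 CPM in basal organoids. The largest member difference in this comparison was that of Adm, -0.29 with a 95% interval from -0.86 to 0.28. Each group held 1 Ad-GFP and 1 Ad-Cre library.

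Among tumoroids, the members spread widely within each origin. Slc2a3 was at 468, 614 and 53.5 CPM in AT2 tumoroids 1 to 3 and at 14.4, 127 and 424 CPM in mixed BASC tumoroids 1 to 3. The origins overlapped for all 10 members, and only 3.49% of all tested genes had origins that did not overlap. The test between the origins called 0 members and 0% of 15470 genes by edgeR. Under an unadjusted p of 0.05 lay 144 genes and 0 members, and DESeq2 called 7 genes and 0 members. The interval of the Slc2a3 difference reached from -1.98 to 3.98 on the log2 scale around 1.00. Adm ranged from 5.18 to 75.5 CPM in AT2 and from 16.1 to 55.8 CPM in mixed BASC tumoroids, and Egln3 from 32.5 to 147 CPM and from 38.1 to 276 CPM. AT2 tumoroids 2 and 3 carry a common number in their titles, as do mixed BASC tumoroids 2 and 3 and the bronchiolar one, so these tumoroids may not be independent.

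The tumoroids highest in Slc2a3 were those lowest in fibroblast markers. Summed fibroblast markers were at 1039 and 599 CPM in AT2 tumoroids 1 and 2 and at 970 CPM in mixed BASC tumoroid 3, against 11170 CPM in AT2 tumoroid 3 and 2100 to 4839 CPM in the other transplant tumoroids. Their part in the spread was not tested. Per length, Slc2a3 made up 64.58%, 63.73% and 11.97% of the transporter pair in AT2 tumoroids 1 to 3, and 5.37%, 19.9% and 45.8% in mixed BASC tumoroids 1 to 3.

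The bronchiolar BASC tumoroid and the autochthonous tumoroid are 1 library each and allow no test. The bronchiolar one held 17.4 CPM of Slc2a3 and lay within the range of the 6 AT2 and mixed BASC tumoroids for 9 members. It was above it for Egln3 alone, at 352 CPM against at most 276 CPM. Of all 14688 genes compared 22.1% lay above and 16.3% below that range. The autochthonous tumoroid lay below the range for 8 of 10 members, where 14.9% of all genes lay below it. Its Slc2a3 was at 11.4 CPM, Pgk1 at 297 CPM against at least 865 CPM, Bnip3 at 62.7 CPM against at least 192 CPM, and Egln3 at 5.84 CPM against at least 32.5 CPM, whereas Vegfa (439 CPM) and Adm (11.9 CPM) lay inside. Mixed BASC tumoroid 3 was the highest of the 8 tumoroids for 5 members, and the share of all genes for which it was highest was not computed.

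Transplantation was then described by setting the 7 transplant tumoroids beside the 4 distal Ad-Cre organoids, the contrast that led to the choice of these genes. Over all 16139 tested genes 19.6% passed the test (10.8% higher and 8.77% lower). No member had groups that did not overlap, beside 15.6% of all tested genes that did. Slc2a3 had a median of 127 CPM in tumoroids, from 14.4 to 614 CPM, beside 3.56 to 20.3 CPM in organoids, a log2 fold change of 4.39. Slc2a1 had nearly the same range in both, 155 to 319 CPM and 152 to 319 CPM. Hk1 was at 171 to 296 CPM in tumoroids and 127 to 173 CPM in organoids (0.71), Ldha at 1650 to 2653 CPM and 1188 to 1756 CPM (0.62), and Pgk1 at 865 to 2343 CPM and 836 to 1162 CPM (0.64). Hk2 was at 69.7 to 152 CPM in tumoroids and 87.6 to 129 CPM in organoids (-0.17). The autochthonous tumoroid, which was not transplanted, lay inside the range of these organoids for Slc2a3 (11.4 CPM) and Hk1 (155 CPM). It lay below that range for the other members, among them Ldha (887 CPM) and Pgk1 (297 CPM). The part of the platform in these differences was not tested.

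The hypoxia targets among the members were level or lower on average after transplantation. Adm went from 62.0 to 251 CPM in organoids to 5.18 to 75.5 CPM in tumoroids (log2 fold change -2.13) and Egln3 from 219 to 858 CPM to 32.5 to 352 CPM (-1.39). Vegfa was at 296 to 1050 CPM in tumoroids and at 694 to 855 CPM in organoids (-0.49), and Bnip3 at 192 to 534 CPM and 297 to 594 CPM (-0.24). Of the other lists, the median log2 fold change was 0.73 over 17 glycolytic enzymes and -0.31 over 27 hypoxia targets, beside -0.002 over all genes. Eno1, an enolase, was at 1567 ± 444 CPM in tumoroids and 766 ± 183 CPM in organoids (SD, n = 7 and 4), and Epas1 was at 233 ± 99 and 578 ± 107 CPM. Of the listed hypoxia targets, Gys1 was higher in tumoroids, at 196 ± 64 and 99.9 ± 24.1 CPM. Ero1l was lower, at 461 ± 212 and 1370 ± 433 CPM.

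Each tumoroid was also set beside the Ad-Cre organoids of its own population, which are 1 library each. Slc2a3, Hk1 and Ldha were higher in 7 of 7 tumoroids, Egln3 was lower in 7 of 7, and Adm was lower in 6 of 7, the exception being AT2 tumoroid 3 with 75.5 CPM beside 62.0 CPM. The share of all genes with the same sign in all 7 was not computed. The Slc2a3 mean went from 19.1 to 379 CPM in AT2 and from 4.21 to 189 CPM in mixed BASC cultures, and from 3.56 to 17.4 CPM in bronchiolar BASC cultures. Starting points differed between populations for Egln3, at 219 CPM in AT2 and 858 CPM in mixed BASC organoids, while the tumoroid means were 102 and 186 CPM. Slc2a1 was higher in 3 of 3 AT2 tumoroids than in AT2 Ad-Cre organoids and in 1 of 3 mixed BASC tumoroids than in mixed BASC Ad-Cre organoids. Beside the Ad-GFP organoids of its population, AT2 tumoroid 3 was lower for Slc2a3 (53.5 and 88.2 CPM) and Ldha (1682 and 2015 CPM). Hk1 was lower in AT2 tumoroid 2 (170.8 and 178.2 CPM) and mixed BASC tumoroid 1 (210.2 and 213 CPM). For each of these genes the other AT2 and mixed BASC tumoroids were higher than their Ad-GFP organoids.

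**Figure D5:**
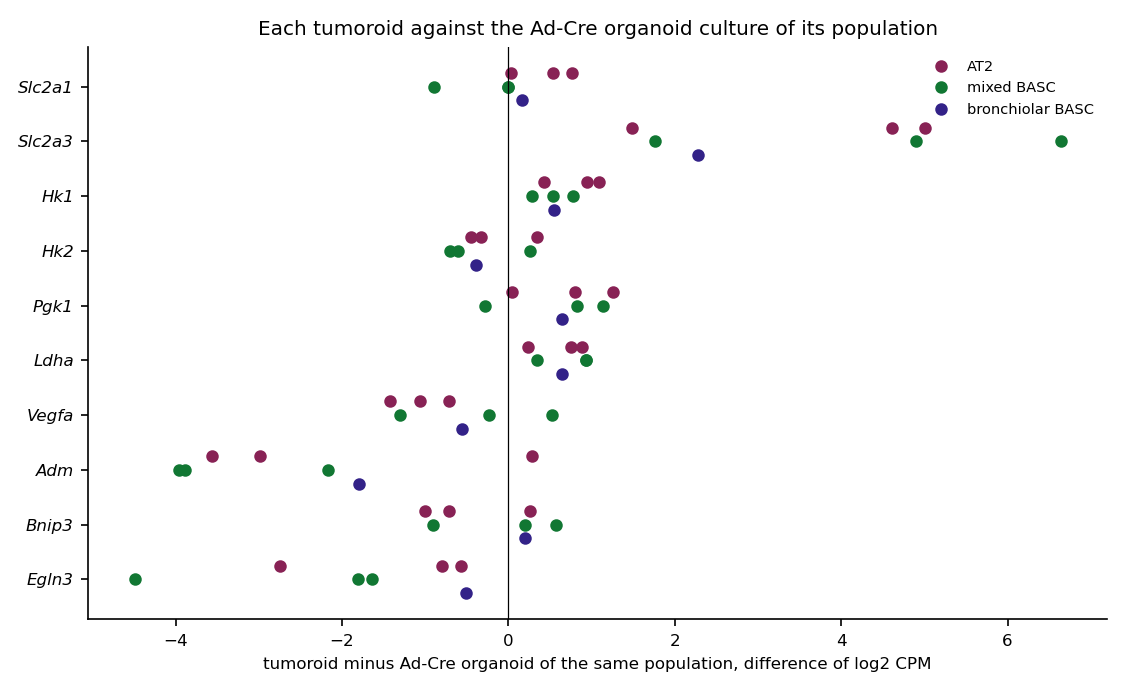
Difference of log2 CPM between each transplant tumoroid and the Ad-Cre organoid library of its population, for AT2 (3 tumoroids), mixed BASC (3) and bronchiolar BASC (1). All points of Slc2a3, Hk1 and Ldha lie above 0 and all points of Egln3 below 0, and the AT2 tumoroid above 0 for Adm is AT2 tumoroid 3.

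Among the genes whose log2 CPM followed Slc2a3 most closely over the 18 libraries, of 10295 genes, were Serf2 (Pearson r = 0.923), Gys1 (0.923), Polr1c (0.921) and Enpep (0.915). Gys1, muscle-type glycogen synthase, was at 78.2 to 150 CPM in organoids and at 108 to 289 CPM in the transplant tumoroids. Of the members, Ldha (0.904) and Pgk1 (0.638) were closest to Slc2a3 and Adm was the most opposite (-0.802), with Egln3 at -0.479, Slc2a1 at -0.211 and Hk1 at 0.117. These r describe libraries that fall into the groups above and into 2 platforms, and carry no test.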

How the data were processed

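RNA-seq was done on 10 organoid and 8 tumoroid cultures, grouped by the labels. Per the labels and the submitters' processing notes, the authors trimmed reads with Trimmomatic 0.39 and used STAR 2.6.1d and RSEM 1.3.2 on Ensembl GRCm38 transcripts, and deposited expected counts and TPM per gene for each library. Gene symbols were matched to 46091 of 46603 identifiers with the GENCODE annotation.

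Deposited expected counts were rounded to whole numbers, filtered with filterByExpr, TMM normalised and tested with the quasi-likelihood test of edgeR 4.0.16 in R 4.3.3 over all genes, with Benjamini-Hochberg adjustment and a threshold of 0.05. CPM values are counts scaled to library sizes adjusted by TMM over all 18 libraries, and TPM, which the authors scaled by transcript length, was used to compare genes. Each comparison was fitted on its own groups, and Ad-Cre was compared with Ad-GFP with the population as a block. DESeq2 1.42.0, limma 3.58.1 on log2(TPM + 1), other filters, normalisations and sample sets, and leaving out each library were tried as alternatives. Scripts were tested on simulated data of independent libraries with a fixed spread below that estimated between tumoroids, so the fits were not checked at that larger spread. Members and lists were chosen with earlier results of these data known. All members were named, and from each other list at most the 2 called genes per direction and comparison with the largest change, provided the mean log2 CPM was 3 or more, and the 5 genes most like Slc2a3, of which 1 is not reported here. Promoters came from a RefSeq table. Precision is limited by 1 library per population and virus, and intervals are at 95%.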

Additional observations from a re-analysis of the deposited data

Results flagged for a closer look

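In 30 groups of 4 or 7 values of the members, 3 had a lowest or highest library set apart from the others by Dixon's criterion. Chance meets that criterion in about 1 of 20 groups. Among tracheal organoids, Slc2a1 was highest in basal Ad-Cre organoids, at 308.6 CPM, with the next library at 267.6 CPM. Bnip3 was lowest in club Ad-GFP organoids, at 249.7 CPM, with the next library at 303.0 CPM. Among the 7 transplant tumoroids, Vegfa was highest in mixed BASC tumoroid 3, at 1050 CPM, with the next at 620.8 CPM.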

How the results depend on the processing

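Slc2a1, Slc2a3, Adm and Egln3 kept their direction and passed in both lineage comparisons under every alternative, except that no member passed (0, with 50 genes) when all 6 distal cultures were set against the trachea. The cause was not tested. Leaving out 1 library gave 9 to 10 called members and 11074 to 12120 genes against the trachea, and 4 to 6 members and 4826 to 7812 genes against BASC organoids, the fewest genes without AT2 Ad-Cre organoids. Where edgeR called 0 genes, DESeq2 called 7 between tumoroids, 5 for Ad-Cre, 41 between club and basal and 141 for the difference of the Ad-Cre effect, where no filter gave 2. Leaving out 1 population there gave 0 to 2 members and 0 to 1562 genes.

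In the tested comparisons, these uncalled log2 fold changes changed sign. Between tumoroid origins, Adm was -0.032 without a filter, -0.81 with limma and -0.36 with tumoroids of a common title number summed, and Ldha was -0.13 with limma. Leaving out 1 tumoroid gave -0.29 to 0.027 for Hk1, -0.53 to 0.13 for Hk2, -0.56 to 0.059 for Pgk1, -0.15 to 0.20 for Ldha, -2.19 to 0.87 for Adm and -0.64 to 0.17 for Bnip3. For Ad-Cre, the fit with no population block gave -0.036 for Ldha and 0.042 for Adm and called no member, distal populations alone gave -0.047 for Slc2a1 and -0.058 for Ldha, and tracheal ones alone gave 0.022 for Hk1. Leaving out 1 population gave -0.024 to 0.15 for Slc2a1, -0.001 to 0.36 for Pgk1, -0.085 to 0.21 for Ldha and -0.21 to 0.13 for Adm. Between club and basal organoids, either 1 tracheal library or the AT2 or mixed BASC pair of the fit was left out. The ranges were -0.031 to 0.33 for Hk1, -0.13 to 0.023 for Hk2, -0.035 to 0.14 for Pgk1 and -0.22 to 0.39 for Vegfa. In the difference of the Ad-Cre effect, Slc2a3 was -0.38 with limma, and leaving out 1 population gave -0.41 to 0.13 for Slc2a1, -1.52 to 2.01 for Slc2a3, -0.29 to 0.014 for Hk2, -0.63 to 0.47 for Pgk1, -0.62 to 0.31 for Ldha, -0.47 to 0.59 for Adm and -0.12 to 0.17 for Bnip3.

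After transplantation, which carries no test, a population block over the 3 populations with both stages, added after seeing the data, gave 4.21 for Slc2a3, -2.11 for Adm, -1.40 for Egln3 and -0.05 for Bnip3, and no member changed sign. AT2 cultures alone gave 0.47 for Slc2a1, -1.03 for Vegfa and -1.10 for Adm, and mixed BASC cultures alone gave -0.28 for Slc2a1, 0.51 for Hk1, -3.12 for Adm, -2.24 for Egln3 and 0.044 for Bnip3. Without AT2 organoids Slc2a1 was -0.002, and with limma Hk2 was -0.63. Tumoroid origins were not paired, because AT2 and mixed BASC tumoroids share no title number. The lineage comparisons were not paired either, because their cultures are labelled as different populations.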
